A study of Mus musculus with 16 samples.

Results

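The aortas of mice with chronic kidney disease (CKD) on a low-phosphate, low-protein diet, called 5/6 Nx-LPi-Lp, were set against the aortas of Sham mice. Of the 16 libraries in the series, 8 entered this comparison, 4 in each group and 1 per mouse, and they were chosen by the group that the labels give. The mice were male C57BL/6J animals without a transgene, operated on at 12 weeks of age. In the 5/6 Nx-LPi-Lp mice the poles of the left kidney were ligated, the right kidney was taken out 1 week later, and the diet after recovery held 0.3% phosphorus and 2.5% protein. The Sham mice went through surgery without loss of kidney mass and ate 2% phosphorus with the same 2.5% protein. The diets followed 2 weeks of recovery and lasted 30 days by the labels and 4 weeks by the study's methods. A CKD group on high phosphate, 5/6 Nx-HPi-Lp (4 libraries), had the surgery of the low-phosphate group and the diet of the Sham mice, and is set beside them at the end. By the study's methods, the low-phosphate feed also held more starch, sucrose, calcium carbonate and energy than the high-phosphate feed, and no sodium or potassium phosphate. Surgery and diet changed together between the 5/6 Nx-LPi-Lp and Sham groups, none of the 16 libraries came from Sham mice on low phosphate, and what belongs to either cannot be told apart. The samples were ground whole aortas of male mice. Whether the surrounding fat was removed before RNA extraction, and at what time of day the tissue was taken, is not given in the sources used here.

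The wall of the aorta is built by smooth muscle cells that contract and deposit elastin and collagen, by an inner layer of endothelium, and by an outer adventitia of fibroblasts, nerves and immune cells, with white and brown adipocytes lying around it. In CKD the kidney clears phosphate poorly, and smooth muscle cells exposed to phosphate can lose their contractile genes, take on genes of bone cells and calcify. Adipocytes make fatty acids from sugar when they are fed, and brown adipocytes burn them in many mitochondria through the uncoupling protein Ucp1.

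Library totals were 13738098 to 21547424 counts in 5/6 Nx-LPi-Lp aortas and 20795568 to 24204348 in the Sham mice. Levels are CPM, the counts of a gene scaled to the size of its library by TMM over all 16, and values of single mice are given in the order of replicates 1 to 4. The label of the tissue was checked by its defining markers. Myh11, the smooth muscle myosin, was at 2407, 2912, 3909 and 4997 CPM in 5/6 Nx-LPi-Lp aortas and at 6184, 6729.8, 6399 and 5943 CPM in the Sham mice, and the endothelial gene Pecam1 was at 249 to 379 and 348 to 523 CPM. Some libraries stood apart from the rest of their group. 5/6 Nx-LPi-Lp replicate 2 held heart muscle RNA, with a sum of 9749 CPM over 9 heart muscle markers against 73.0 to 146 CPM in the other 3 mice of the group and 77.6 to 134 CPM in the Sham mice. Sham replicate 1 held the most red cell RNA, with 3993, 1136, 379 and 483 CPM over 5 erythroid markers in the 4 Sham mice. The noradrenaline enzymes Dbh and Th of sympathetic neurons were highest in 5/6 Nx-LPi-Lp replicates 3 and 4, while the sum over 19 neuron markers was 87.9, 163, 206 and 360.3 CPM against 103 to 151 CPM in the Sham mice. The summed levels of white and of brown fat markers were higher in every 5/6 Nx-LPi-Lp library than in any Sham library. In a bulk sample, fewer cells of a type and less RNA per cell cannot be told apart. The p-values measure the spread between 4 mice per group.

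**Figure D1:**
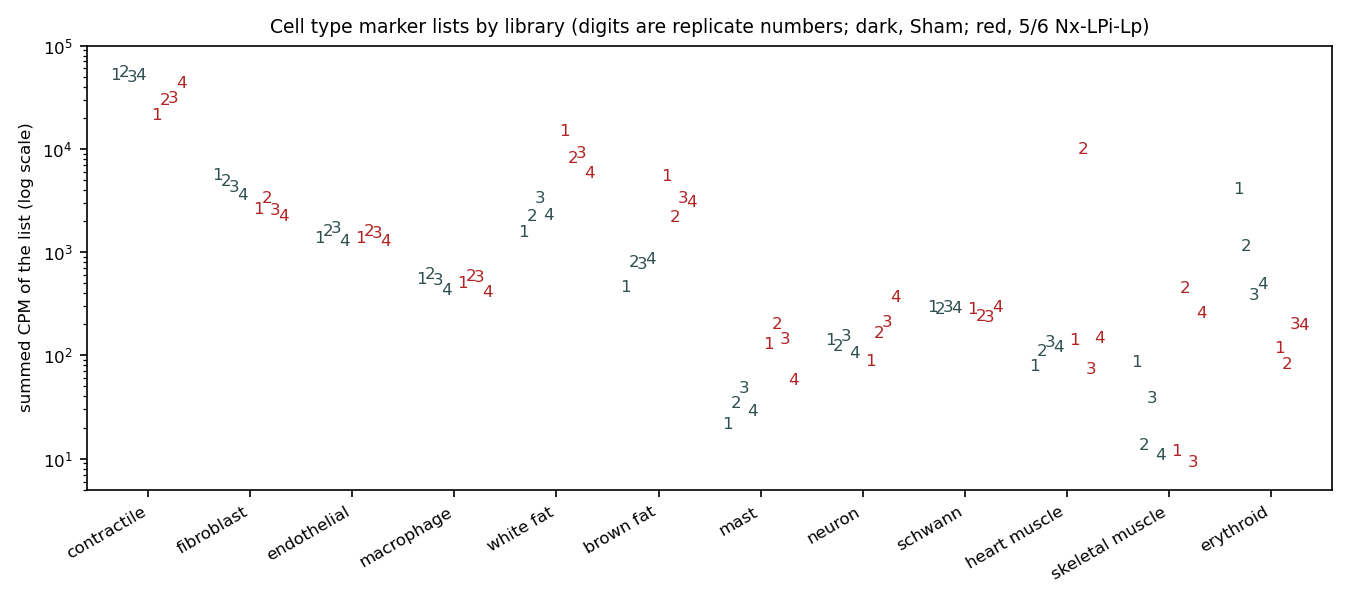
Summed CPM (log scale) of 12 marker lists, named along the horizontal axis, in each library, with digits for the replicate number, dark for Sham and red for 5/6 Nx-LPi-Lp. The white fat and brown fat sums of the 5/6 Nx-LPi-Lp mice lie above and the contractile sums below those of all Sham mice, the endothelial and macrophage sums overlap, and replicate 2 alone carries a heart muscle sum of 9749 CPM.

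Most tested genes of the fat, mitochondrial and mast cell lists were higher in the 5/6 Nx-LPi-Lp aorta, and all 5 erythroid genes and some smooth muscle and matrix genes were lower. Of 16071 genes tested, 1413 were higher (8.79%) and 335 lower (2.08%) than in the Sham mice by the rule for a call, which asked for an adjusted p no higher than 0.05 and a log2 fold change of 1 or more in either direction. Each count of called list members against Sham below is to be read beside these 8.79% and 2.08%. The increases were larger as well as more frequent, since 463 genes rose at least 4-fold and 17 fell as much. Without the limit on fold change, 2781 genes were higher and 2334 lower, so that most of the lower genes differed by less than 2-fold. The CPM of the 4 mice lay above all Sham mice in 2181 genes (13.6%) and below them in 3547 genes (22.1%). Scaling to total counts instead of TMM lowered the median log2 fold change of all genes from 0.02 to -0.22 and gave 1048 higher and 842 lower genes, so that 55.4% of the calls were higher against 80.8% with TMM scaling. The count of lower genes was 203 without 5/6 Nx-LPi-Lp replicate 1 and 598 without replicate 4.

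**Figure D2:**
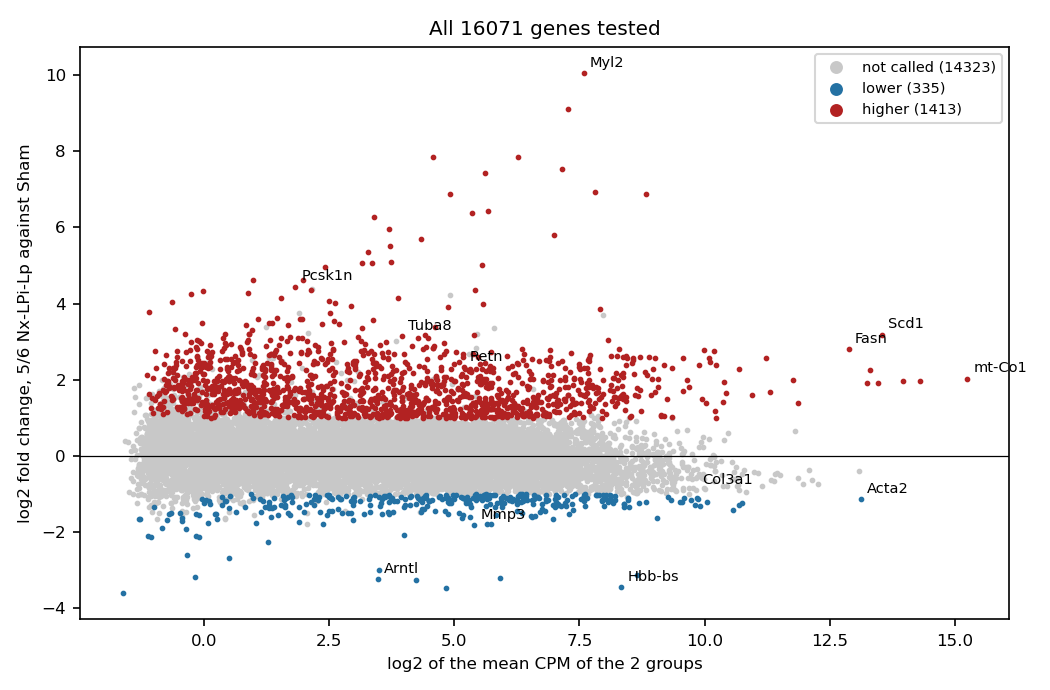
Log2 fold change of the 16071 genes tested between 5/6 Nx-LPi-Lp and Sham mice (vertical axis) against the log2 of their mean CPM (horizontal axis), with called genes in red (1413 higher) and blue (335 lower) and some genes named. Fasn, Scd1 and mt-Co1 are both abundant and higher, Acta2 is abundant and lower, and the highest points, such as Myl2, are heart muscle genes of 1 library.

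Genes of fatty acid synthesis were several-fold higher in the 5/6 Nx-LPi-Lp aorta, and 13 of 16 tested rose, against 8.79% of all genes. Scd1, the stearoyl-CoA desaturase that makes monounsaturated fatty acids, was at 40626, 10729, 23752 and 10688 CPM in 5/6 Nx-LPi-Lp aortas and at 1420.3, 2941, 3523 and 2126 CPM in Sham aortas. The log2 fold change was 3.19 (SE 0.50, adjusted p = 0.00344 by edgeR), and by FPKM, which takes gene length into account, it was the most abundant transcript of nuclear genes in the 5/6 Nx-LPi-Lp aorta (4508) and ranked 47 in Sham (496). Fasn, the fatty acid synthase, was at 23533, 6371, 15152 and 7175 CPM against 1185, 2376, 2518 and 1855 CPM and rose by 2.81 on the log2 scale. Acly, which supplies the acetyl-CoA, was at 3941, 775, 2239 and 1133 CPM against 214, 411, 363 and 288 CPM and rose by 2.75. In each of these 3 genes the lowest 5/6 Nx-LPi-Lp mouse lay above the highest Sham mouse, and replicates 1 and 3 lay above replicates 2 and 4. None of the 16 fell, and their median log2 fold change was 2.55, against 0.02 over all genes. Elovl6 (2.81), Acaca (2.58), Dgat2 (2.52), Gpam (2.42) and Thrsp (2.58), which elongate, start or esterify fatty acids or respond to carbohydrate, were among the 13. The transcription factor Mlxipl, which drives these genes on glucose, rose by 1.94, while Srebf1, its insulin-driven counterpart, had a value of 0.91 that did not pass the rule.

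Most adipocyte genes were higher in all 4 mice. Adipoq, the adipocyte hormone adiponectin, was at 363, 174, 227 and 135 CPM in 5/6 Nx-LPi-Lp aortas and at 19.5, 43.7, 72.4 and 39.8 CPM in the Sham mice (log2 fold change 2.45, SE 0.41, adjusted p = 0.00363 by edgeR). Plin1, which coats the fat droplet, was at 1085, 355, 589.8 and 355 against 58.1, 107, 161 and 98.1 CPM. The Sham mice were not free of fat, since every library held these transcripts and Sham replicate 3 held the most. Of 13 white adipocyte genes 12 rose, with a median of 2.34, and the exception was Plin4 (0.060). Lpl (2.79), which releases fatty acids from lipoproteins, the fatty acid transporter Cd36 (2.61) and the nuclear receptor Pparg (2.28) were among them. The summed level of the 13 genes was 14679, 8102, 9003 and 5703 CPM against 1554, 2225, 3327 and 2279 CPM in the Sham mice. Retn, the adipocyte protein resistin, had among the smallest adjusted p-values of all genes (log2 fold change 2.34, adjusted p = 0.00188 by edgeR). It was at 65.3, 69.5, 61.5 and 44.0 CPM against 8.36, 13.4, 15.7 and 13.2 CPM.

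Brown fat genes rose together with the white ones. Ucp1, which uncouples respiration to make heat, was at 2970.1, 644, 1757 and 2057 CPM in 5/6 Nx-LPi-Lp aortas and at 205, 431, 325 and 473 CPM in the Sham mice (log2 fold change 2.46, SE 0.43, adjusted p = 0.00402 by edgeR). Cidea, a droplet protein of brown adipocytes, was at 1089.5, 337, 737 and 399.8 against 66.6, 118, 165 and 108 CPM and rose by 2.57. The groups did not overlap in either gene, and replicate 1 was the highest in both. Of 11 brown adipocyte genes tested 9 rose, among them Elovl3 (2.56), Cox8b (2.30) and Ppargc1a (1.68), and Dio2 (0.51) and Gk (0.53) were not called. Fabp3, a fatty acid binding protein of brown fat and heart, was at 131, 538, 98.1 and 71.0 CPM with its peak in the library that held heart muscle RNA, and its log2 fold change of 2.78 became 1.69 without that library.

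Genes that burn fat and sugar followed. Of 13 genes of fatty acid oxidation and the fasting response, 9 rose and none fell (median 1.81). Pdk4, the kinase that keeps pyruvate out of the mitochondrion, was at 558, 222, 349 and 239.7 CPM against 38.6, 95.1, 67.1 and 54.2 CPM and rose by 2.51 (SE 0.35). Acadl (2.19), Acadvl (2.32) and Hadha (2.02), enzymes of beta-oxidation, also rose, while Cpt1a, the form of the carnitine transferase most used outside muscle and brown fat, was at -0.46 and was not called. In the list of hypoxia-induced genes 7 of 14 rose, against 8.79% of all genes, and those 7 were Hk2 (1.81), Aldoa (1.59), Pgk1 (1.57), Ldha (1.497), Pdk1 (1.77), Bnip3 (1.26) and Vegfa (1.61). The first 5 are enzymes of glucose use or its control, Bnip3 acts in the removal of mitochondria, and Vegfa is the vascular growth factor. Other members of the same list gave values near or below 0, with Slc2a1 at -0.73, Adm at -0.61 and Ndrg1 at -0.61. Slc16a1, the lactate and pyruvate carrier, was at 151, 114, 127 and 102 CPM against 22.04, 40.4, 26.6 and 34.7 CPM and was among the genes with the smallest adjusted p (log2 fold change 2.09, SE 0.20, adjusted p = 0.00195 by edgeR). Of 17 genes of cholesterol synthesis and uptake 8 rose, against 8.79% of all genes, and none fell, with Insig1 at 2.09, Nsdhl at 1.56 and Fdft1 at 1.46. Without 5/6 Nx-LPi-Lp replicate 1, the library with the most fat transcripts, 4 of the 17 were called.

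Transcripts of the mitochondrial genome took 17.4% ± 2.83 (SD, n = 4) of the counts in 5/6 Nx-LPi-Lp aortas and 5.19% ± 1.01 in the Sham mice. The shares did not overlap, with 14.2 to 21.1% against 4.18 to 6.34% (exact permutation test over 70 splits, two-sided p = 0.0286, the smallest that 4 against 4 mice allow). All 13 protein genes of the mitochondrial genome rose, with a median log2 fold change of 2.03. mt-Co1, which encodes a subunit of cytochrome c oxidase, was at 61888, 74798, 48269.7 and 61165 CPM against 13774, 12784, 17897 and 19839.9 CPM. mt-Nd3, a subunit of complex I, had the smallest adjusted p of all named genes (80.5, 93.3, 68.3 and 66.3 against 18.2, 17.0, 24.0 and 21.5 CPM, log2 fold change 2.03, SE 0.16, adjusted p = 0.00148 by edgeR). mt-Nd5 and mt-Nd6 lie on opposite strands, and without a known strand setting reads where they meet cannot be assigned with certainty. The subunits of the respiratory chain that the nucleus encodes moved the same way. Of 76 tested, 46 rose, none fell, and in 66 every 5/6 Nx-LPi-Lp mouse was above every Sham mouse, against 13.6% of all genes. Their median was 1.05, about 1 unit of log2 below that of the mitochondrial genes. Uqcrfs1, the Rieske protein of complex III, was at 631, 365, 367 and 221 CPM against 82.6, 108, 131 and 104 CPM (1.99, SE 0.29), followed by Cox5a (1.98), Uqcrc2 (1.88) and Sdha (1.82). Without 5/6 Nx-LPi-Lp replicate 1, the count of 46 dropped to 28, and with total-count scaling it was 28 too. The ribosomal proteins of the cytosol did not follow, with none of 76 called and a median of -0.22. Many were slightly lower, and 19 passed on p alone as lower and 2 as higher. In 40 of the 76 every 5/6 Nx-LPi-Lp mouse was below every Sham mouse, against 22.1% of all genes, and in 3 above. Slc25a10, a carrier of dicarboxylates across the mitochondrial membrane, was at 123, 100.5, 86.9 and 92.1 CPM against 41.5, 44.0, 47.4 and 43.4 CPM (1.28, adjusted p = 0.00188 by edgeR).

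**Figure D3:**
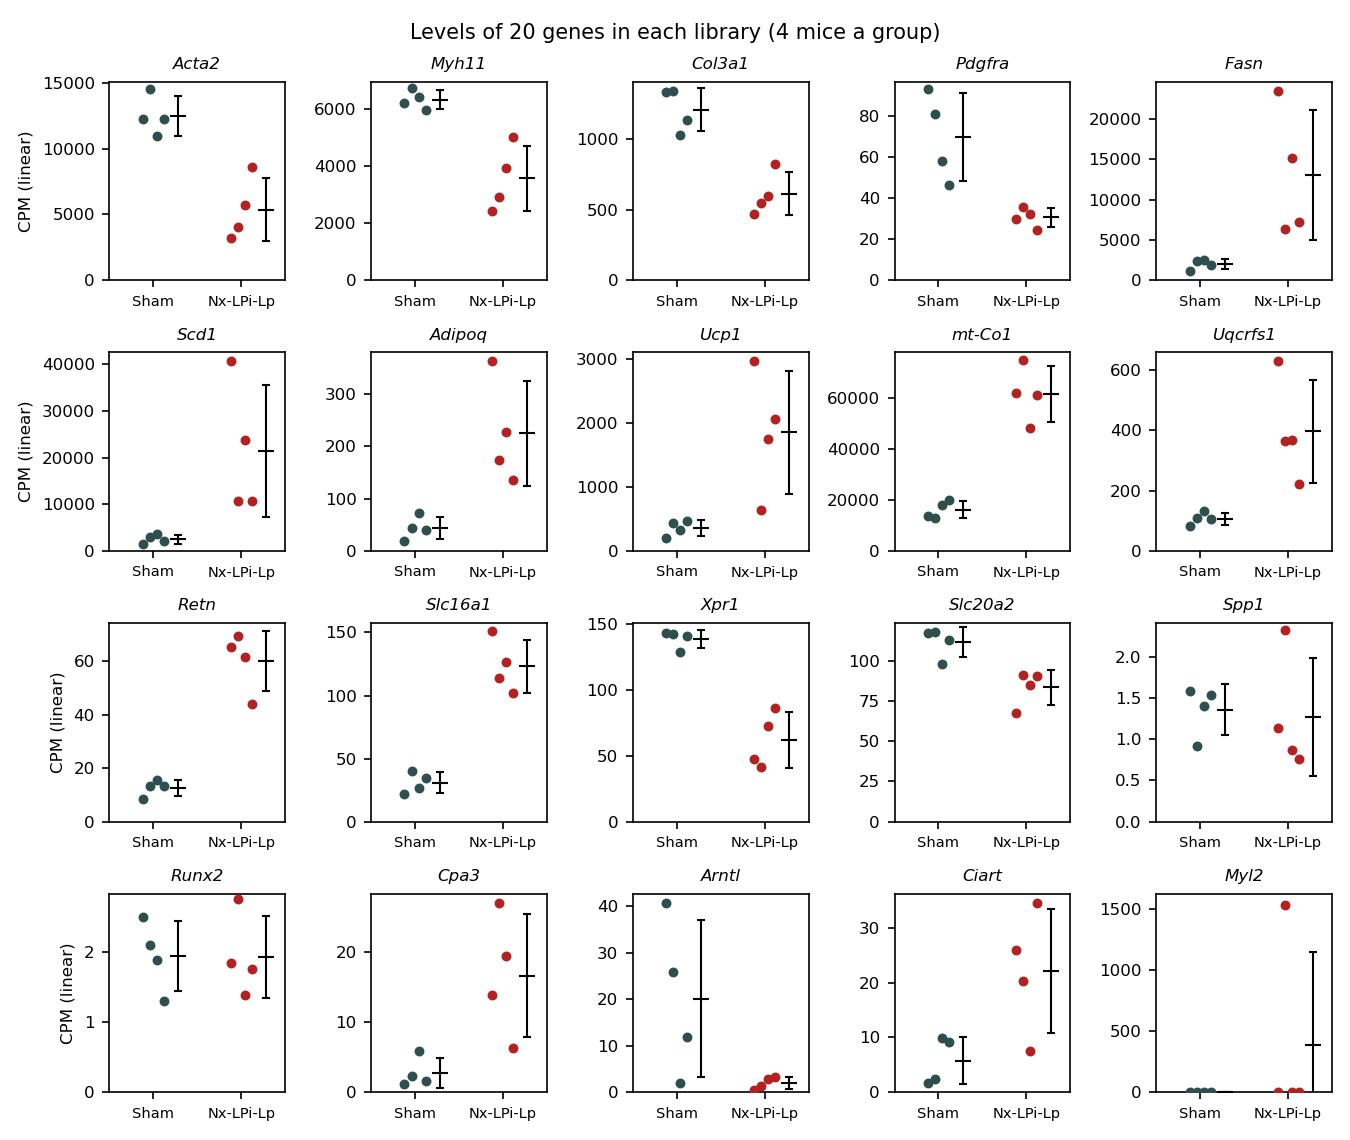
CPM (linear scale, starting at 0) of 20 genes in each Sham mouse (dark) and each 5/6 Nx-LPi-Lp mouse (red), with the mean and SD of each group of 4 beside the points, where the lower bar of Myl2 is cut at 0. Acta2, Myh11, Col3a1 and Xpr1 are lower and Fasn, Scd1, Adipoq, Retn and mt-Co1 higher in all 4 mice of the 5/6 Nx-LPi-Lp group, Spp1 and Runx2 overlap, and Myl2 is high in 1 mouse.

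Contractile genes of smooth muscle were lower, and 6 of 20 tested fell, against 2.08% of all genes. Acta2, the smooth muscle actin (chr19:34241090-34255336 of mm10), was at 3172, 4014, 5698 and 8590.3 CPM in 5/6 Nx-LPi-Lp aortas and at 12240.1, 14517, 10932 and 12209.6 CPM in Sham aortas. The log2 fold change was -1.13 (SE 0.29, adjusted p = 0.0176 by edgeR). The value was -1.44 to -0.95 with a library left out, and the call was lost without 5/6 Nx-LPi-Lp replicate 1 or Sham replicate 2. Myh11 was at -0.74 (SE 0.22, adjusted p = 0.0321 by edgeR) and so passed on p and missed the limit on fold change, as did Cnn1, calponin, at 592, 892, 1105 and 1339 against 1728, 1987, 1751 and 1717 CPM (-0.78). No 5/6 Nx-LPi-Lp mouse reached the lowest Sham mouse in any of these 3 genes, and replicate 1 was the lowest and replicate 4 the highest of its group in each. Synpo2, an actin-binding protein, was at 114, 148, 210.3 and 306 against 488, 626, 476 and 495 CPM and fell by 1.33. Among the 6 were Cald1 (-1.22), Kcnmb1 (-1.25) and Mylk (-1.09), and the median of the 20 was -0.76. In 15 of the 20 the groups did not overlap with the CKD mice lower, against 22.1% of all genes. Tagln (-0.44), Tpm1 (-0.29), Smtn (-0.17) and Myl9 (-0.36) gave smaller values and were not called. The exception was Pln, at 4.44, 309.7, 4.52 and 6.76 CPM, which was high in the library with heart muscle RNA alone and was not called without it (0.36). The count of 6 varied with the library left out, from 3 (without 5/6 Nx-LPi-Lp replicate 1 or without Sham replicate 2) to 9 (without 5/6 Nx-LPi-Lp replicate 4). The summed contractile level was 20833, 29666, 30930.1 and 42661 CPM in 5/6 Nx-LPi-Lp aortas, in which the white fat sum had the opposite end values, highest in replicate 1 and lowest in replicate 4. The part of fat RNA in the lower contractile values was not tested.

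The factors that drive these genes gave a mixed picture. Srf, the serum response factor, was at 43.1, 54.5, 64.1 and 69.9 CPM against 112, 111, 91.9 and 105 CPM, without overlap, and its value of -0.77 passed on p alone (adjusted p = 0.00529 by edgeR). Its partner Myocd was at 9.21, 20.8, 28.04 and 36.9 against 38.8, 88.8, 42.0 and 30.6 CPM, which overlapped (-0.99, adjusted p = 0.102 by edgeR). Klf4, which represses contractile genes, gave -0.0094 with an SE of 0.18. Of 13 regulators tested 2 fell, Mef2c (-1.04) and Prkg1 (-1.10), the kinase that relaxes smooth muscle on cyclic GMP. Both calls were lost without 5/6 Nx-LPi-Lp replicate 1 or Sham replicate 2, and that of Prkg1 was kept in 1 of 8 fits with a library left out, the one without 5/6 Nx-LPi-Lp replicate 4.

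Most collagen and elastic fiber genes had lower levels, although few passed the limit on fold change. Col3a1, a fibrillar collagen, was at 469, 549, 599 and 825 CPM in 5/6 Nx-LPi-Lp aortas and at 1331, 1339, 1025 and 1133 CPM in the Sham mice, without overlap, and its log2 fold change of -0.89 (adjusted p = 0.00715 by edgeR) missed the limit on size. Col1a1 was at 357, 304, 504 and 714 against 1062, 941, 615 and 788 CPM (-0.77), and Eln, elastin, at 1057, 1256, 2074 and 1999 against 3468, 3129.8, 1586 and 3565 CPM, where Sham replicate 3 was the low one (-0.79). Lox, which cross-links both fibers, was at 34.3, 31.8, 69.8 and 52.6 CPM against 166, 206, 95.9 and 127 CPM and fell by 1.57 (SE 0.29, adjusted p = 0.00491 by edgeR). Of 29 matrix genes tested, Lox and the elastic fiber genes Fbln5 (-1.10), Fbln1 (-1.05) and Fbn1 (-1.02) fell, none rose, and the median was -0.65. In 14 of the 29 all 4 mice lay below all Sham mice, against 22.1% of all genes. With total-count scaling 12 of the 29 were called. The count of 4 was 2 without Sham replicate 1 or 5/6 Nx-LPi-Lp replicate 1, and 8 without 5/6 Nx-LPi-Lp replicate 4. Among 21 proteases and their inhibitors, Mmp3, stromelysin 1, was at 14.8, 15.9, 17.6 and 22.2 CPM against 107, 72.7, 35.9 and 50.6 CPM and fell by 1.82, and the aggrecan-cleaving enzymes Adamts15 (-1.13) and Adamts8 (-1.08) fell too. Mmp19 rose, at 19.1, 7.15, 10.9 and 6.09 against 5.28, 4.85, 3.83 and 2.61 CPM (1.47). Mmp2 (-0.33) and Timp1 (-0.065) were not called.

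Of 14 fibroblast markers and of 28 genes of TGF-beta and BMP signaling, 2 each fell, against 2.08% of all genes. Pdgfra, the receptor that marks fibroblasts, was at 29.9, 35.6, 32.5 and 24.5 CPM in 5/6 Nx-LPi-Lp aortas and at 93.4, 81.0, 58.1 and 46.2 CPM in the Sham mice and fell by 1.09 (SE 0.22). Serpinf1, a secreted antiangiogenic protein, was at 72.6, 81.8, 79.6 and 61.7 against 274, 213, 147 and 139 CPM and fell by 1.29. These were the 2 of 14 fibroblast genes called, with a median of -0.71, and Dcn (-0.91), Lum (-0.67) and Pi16 (0.081) were not. Without Sham replicate 1 or without 5/6 Nx-LPi-Lp replicate 4, only Serpinf1 of these 2 was called, and without 5/6 Nx-LPi-Lp replicate 2 the count was 5. Ctgf, a matricellular target of TGF-beta, was at 369.5, 654, 725 and 684 CPM against 1813, 2049, 987 and 1188 CPM and fell by 1.22 (adjusted p = 0.0111 by edgeR). It was 1 of 2 of the 28 TGF-beta and BMP genes called, the other being Chrdl1 (-1.06), an antagonist of BMP. The ligand Tgfb1 was at 0.024 with an SE of 0.12.

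Among genes of phosphate transport, which moves the mineral that the diets differed in, 1 was called. Xpr1, which exports phosphate from the cell, was at 47.3, 41.7, 72.7 and 86.4 CPM in 5/6 Nx-LPi-Lp aortas and at 143, 142, 128 and 140.3 CPM in the Sham mice, and fell by 1.07 (SE 0.21, adjusted p = 0.00540 by edgeR). The value was -0.93 without 5/6 Nx-LPi-Lp replicate 2, and the call was also lost without replicate 1. Slc20a2, a sodium-phosphate importer, was at 67.7, 91.0, 85.0 and 90.4 against 117, 118, 98.2 and 113 CPM without overlap (-0.33, adjusted p = 0.0615 by edgeR). Slc20a1, the other importer, was at 38.4, 45.2, 32.0 and 52.7 against 34.8, 30.2, 28.8 and 40.7 CPM, which overlapped, with a value of the opposite sign (0.42, adjusted p = 0.0823 by edgeR). Neither importer passed the test. Of 19 genes of phosphate handling and its hormones 10 had enough counts to be tested, and Xpr1 was the 1 called. The 9 with too few counts included Kl, Fgf23 and the renal transporters Slc34a1 and Slc34a3.

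Among inhibitors of mineralization and genes of bone and cartilage, none rose and 2 fell, against 8.79% and 2.08% of all genes. The highest value, 1.37663, was the same in both lists, as for a gene that belongs to both, and was not called. Without 5/6 Nx-LPi-Lp replicate 2 or without replicate 4, 1 gene of each list was called higher, which may be the same gene. Mgp, the matrix Gla protein that keeps arteries free of mineral, was at 1355, 2001, 2589 and 2794 CPM against 3001, 2492, 4327 and 3081 CPM, which overlapped (-0.47). Enpp1, which makes the inhibitor pyrophosphate, passed on p alone (-0.76, adjusted p = 0.0469 by edgeR), and Alpl, which degrades it, was at 29.9, 27.0, 22.7 and 16.2 against 17.6, 19.4, 19.7 and 12.7 CPM (0.56, adjusted p = 0.0628 by edgeR). Sost, the secreted Wnt inhibitor sclerostin, was the 1 of 14 called, at 209, 299, 529.8 and 959 CPM against 1479.8, 1314, 956 and 1419 CPM (-1.29), and replicate 4 lay inside the range of the Sham mice. Its call was kept in 2 of 8 fits with a library left out, those without Sham replicate 3 or 5/6 Nx-LPi-Lp replicate 4. Spp1, osteopontin, was at 1.14, 2.32, 0.874 and 0.762 against 1.58, 0.918, 1.40 and 1.54 CPM (-0.0041, SE 0.40). Runx2, the factor that commits cells to bone, was at 1.84, 2.76, 1.38 and 1.76 against 2.50, 2.10, 1.89 and 1.30 CPM (0.086, SE 0.30), and Sox9, its counterpart in cartilage, was at 0.29. Of 20 osteochondrogenic genes 15 were tested, none rose, and Ibsp, a bone sialoprotein, was the 1 that fell (0.108, 0.251, 0.655 and 0.286 against 0.732, 1.27, 2.21 and 1.62 CPM), at levels near the filter on low counts. Bmp2 was at -0.96 and passed on p alone.

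**Figure D4:**
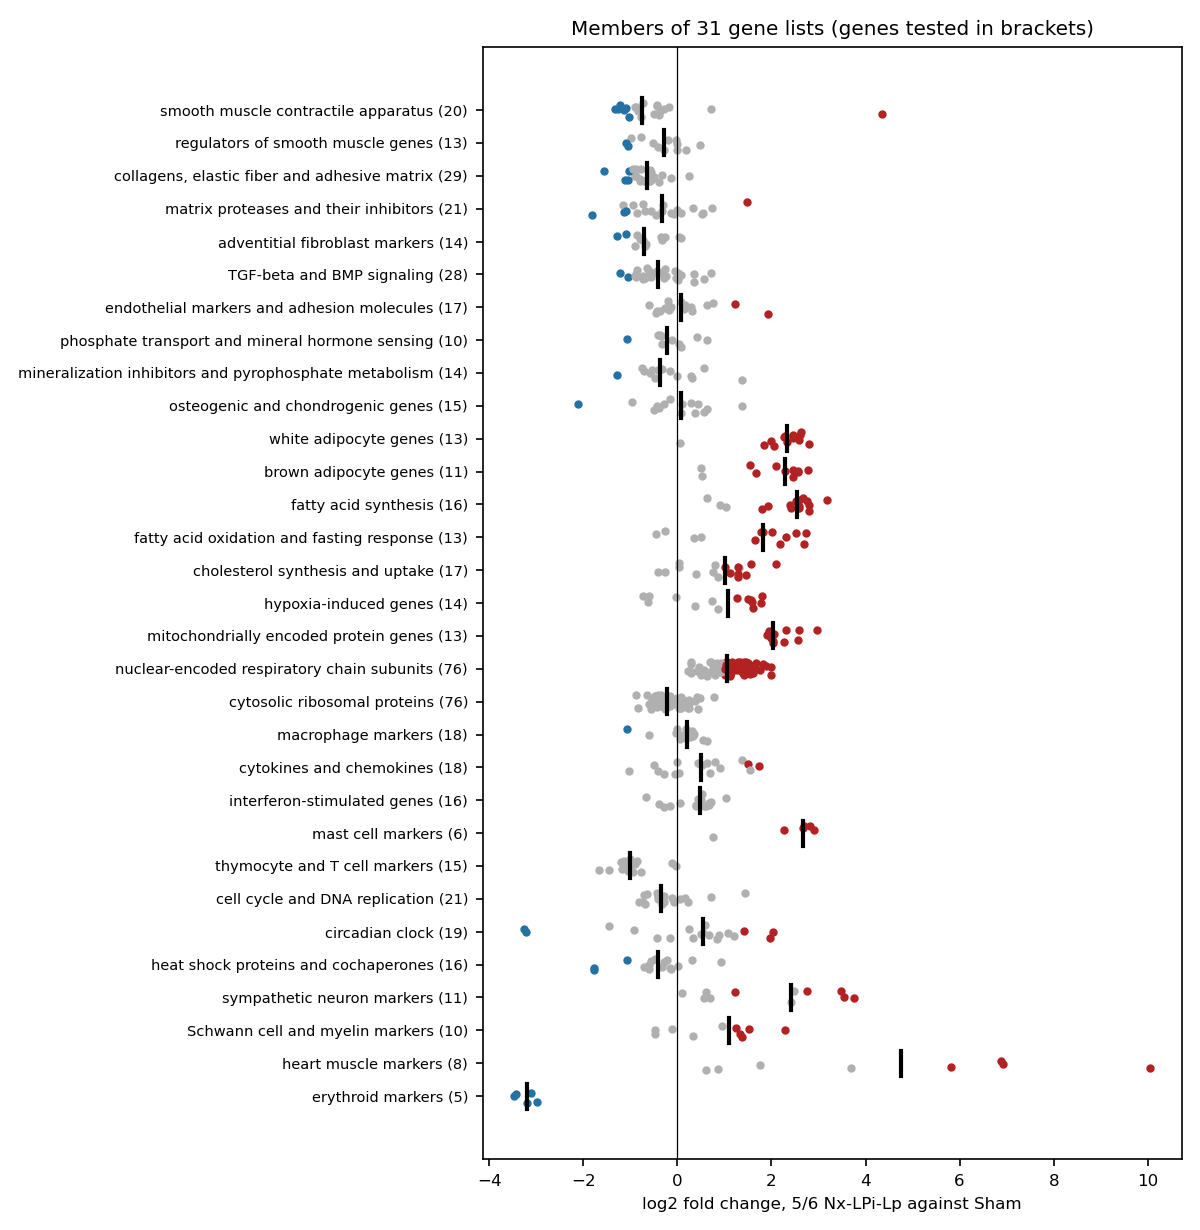
Log2 fold change of 5/6 Nx-LPi-Lp against Sham mice (horizontal axis) for each tested member of 31 gene lists, named on the vertical axis with the number tested in brackets, in red where called higher, blue where called lower and grey where not called, with black bars for the list medians. The fat, mitochondrial and mast cell lists lie to the right of 0 and the contractile, matrix and fibroblast lists to the left. The medians are 0.086 for the bone and cartilage list, 0.48 for the interferon list and -0.22 for the ribosomal list.

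The summed level of endothelial markers overlapped between the groups, at 1259.9 to 1590.4 CPM in 5/6 Nx-LPi-Lp aortas and 1252 to 1680.5 CPM in the Sham mice. Of 17 tested 2 rose, a share near the 8.79% of all genes, and none fell. The median was 0.084, and with total-count scaling it was -0.16 and 1 gene was called. Kdr, the main receptor of VEGF, was at 86.1, 44.7, 61.0 and 47.6 CPM in 5/6 Nx-LPi-Lp aortas and at 12.7, 18.3, 19.4 and 16.6 CPM in the Sham mice and rose by 1.93 (SE 0.22, adjusted p = 0.00245 by edgeR). Emcn, a sialoglycoprotein of capillaries and veins, rose by 1.22. Nos3, the endothelial nitric oxide synthase, was at 65.4, 99.3, 87.4 and 84.9 against 72.2, 61.2, 79.6 and 76.7 CPM (0.31), and Vcam1, an adhesion molecule of the inflamed vessel, at -0.19 (SE 0.25).

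Of 27 genes of vascular tone tested, 6 rose and 6 fell, against 8.79% and 2.08% of all genes. The 6 that fell became 3 without 5/6 Nx-LPi-Lp replicate 1, 4 without replicate 2, 8 without replicate 3 or 4, and 9 with total-count scaling. The receivers of nitric oxide fell. Gucy1b1, a subunit of its soluble guanylate cyclase, was at 50.5, 56.0, 84.3 and 117 CPM against 181, 216, 202 and 217 CPM (-1.32, SE 0.24), and the partner subunit Gucy1a1 fell by 1.13. Rgs5 (-1.32) and Rgs4 (-1.10), which shut off G proteins, the phosphodiesterase Pde3a (-1.05) and the vasopressin receptor Avpr1a (-1.31) fell with them. Among the genes that rose were the adrenergic receptors Adra1a (37.4, 11.7, 26.1 and 13.8 against 2.62, 6.82, 5.32 and 3.56 CPM, 2.37) and Adrb3 (1.54), of which Adrb3 is a receptor of adipocytes. The endothelin receptor Ednrb (1.46) and the natriuretic peptide receptor Npr3 (1.39) rose too. Agtr1a, the angiotensin receptor, was at 3.36, 7.41, 3.20 and 3.33 CPM with its peak in the library that held heart muscle RNA, and its value of 1.38 was not called without it (0.97). Ace (-0.26) and Edn1 (-0.20) were not called. Of 19 ion channels and pumps of smooth muscle, Abcc9, the regulatory subunit of the vascular KATP channel, was at 95.0, 87.8, 129 and 135 CPM against 279.9, 271, 275 and 261 CPM and fell by 1.19 (adjusted p = 0.00263 by edgeR). Kcnk3, a background potassium channel also found in brown adipocytes, was at 326, 151, 197 and 130.1 against 26.4, 43.4, 44.1 and 37.5 CPM and rose by 2.50.

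Of 21 genes of oxidant handling, 5 rose and 1 fell, against 8.79% and 2.08% of all genes. Nox4, the hydrogen peroxide source of the vessel wall, was at 127, 119.6, 222 and 233 CPM against 322, 348, 484 and 395 CPM and fell by 1.05, and Sod3, the extracellular superoxide dismutase, passed on p alone (-0.79). The call of Nox4 was lost without 5/6 Nx-LPi-Lp replicate 1 or 2 or without Sham replicate 3, where its value was -0.92 at the smallest. Rises were found in Sod2 (1.73), the mitochondrial form, Cat (1.497), catalase, Gpx3 (1.58), Gpx4 (1.07) and Gsta4 (37.9, 26.1, 20.4 and 13.1 against 3.78, 6.47, 10.9 and 4.15 CPM, 2.04). Hmox1 (0.49) and Nqo1 (-0.59), targets of Nrf2, were not called. Of 16 heat shock genes 3 fell, against 2.08% of all genes, namely Hsph1 (-1.06), Hspa1a (-1.78) and Hspa1b (-1.78). Hspa1a was at 13.5, 24.0, 22.9 and 25.7 CPM against 36.1, 198, 46.1 and 35.5 CPM, with Sham replicate 2 far above the rest, and all 3 calls were lost without that library or without 5/6 Nx-LPi-Lp replicate 1. The calls of Hspa1a and Hspa1b were also lost without 5/6 Nx-LPi-Lp replicate 2 or 3, and that of Hspa1b without replicate 4. Hspa1a and Hspa1b are near-identical copies, so that reads may be split between them. Of 23 genes that respond to amino acid shortage (both groups ate little protein), 3 rose, a share near the 8.79% of all genes. Asns, asparagine synthetase, was at 29.5, 13.7, 22.8 and 8.66 CPM against 3.01, 4.28, 5.77 and 2.33 CPM (2.37), while its driver Atf4 was at -0.13 and Ddit3 and Trib3 passed on p alone (0.64 and 0.58). Without 5/6 Nx-LPi-Lp replicate 1, 1 of the 23 was called. Of 13 genes that answer to glucocorticoids 2 rose, against 8.79% of all genes. They were Glul (1.82) and Hsd11b1, which regenerates active glucocorticoid (258, 109, 141 and 82.0 against 26.7, 37.0, 39.0 and 31.6 CPM, 2.22), and Fkbp5 was at -0.15. None of 19 immediate early genes and none of 21 cell cycle genes was called, with medians of -0.14 and -0.35.

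Kinases of the MAPK family, their kinases and their phosphatases were examined because the study measured this pathway. The study did so by RNA and by phosphorylated p38 protein, and the values here are RNA levels only. Of 32 tested 5 rose, against 8.79% of all genes, and none fell. The median was 0.021, the value of all genes. Mapk14, which encodes p38 alpha, was at 115, 75.7, 109 and 97.3 CPM in 5/6 Nx-LPi-Lp aortas and at 90.5, 84.8, 84.6 and 83.5 CPM in the Sham mice (0.30, adjusted p = 0.0896 by edgeR). Its activators Map2k3 (0.30) and Map2k6 (-0.41) were not called either. The 5 that rose were Mapk10 (4.32), the phosphatase Dusp4 (2.84), Mapkapk3 (1.42), Mapk11 (1.19) and Mapk12 (1.06). Mapk11 and Mapk12 encode further forms of p38, so with TMM scaling some p38 genes were called although Mapk14 was not. With total-count scaling 3 of the 32 were called, and Mapk11 and Mapk12 had the smallest values of the 5. Mapk10, the JNK form of nerve and heart, was at 0.542, 4.83, 0.874 and 1.29 CPM against 0.0385, 0.0874, 0.271 and 0 CPM, highest in the library with heart muscle RNA, and its value without it was 3.25.

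Few immune genes were called, apart from those of mast cells. Of 18 macrophage markers none rose, and Gpnmb, a protein of lipid-laden and phagocytic macrophages, was the 1 that fell (9.42, 9.60, 8.16 and 5.05 against 22.5, 23.3, 14.9 and 11.7 CPM, -1.07). Its call was lost without Sham replicate 1 or 2 or without 5/6 Nx-LPi-Lp replicate 4. Adgre1 (0.32), Cd68 (0.55) and Csf1r (0.22) were not called. None of 16 interferon genes, 9 MHC class II genes or 15 T cell genes was called, with medians of 0.48, 0.12 and -1.01. All 15 T cell values were below 0, and the summed level varied widely within both groups. It was 5.00 to 60.8 CPM in 5/6 Nx-LPi-Lp aortas and 26.2 to 154 CPM in the Sham mice. Of 18 cytokines tested 2 rose, a share near the 8.79% of all genes. These were Cxcl9 (1.73) and Il34 (1.495), the former called in 4 of 8 fits with a library left out, while Ccl2 was at 1.79, 2.89, 1.31 and 2.19 against 1.58, 1.75, 0.857 and 1.42 CPM (0.64). The counts of Il6 were 0, 5, 1 and 0 in 5/6 Nx-LPi-Lp aortas and 0, 0, 1 and 0 in the Sham mice, under the limit for a test. Mast cell proteases rose together. Cpa3, their carboxypeptidase, was at 13.9, 27.0, 19.4 and 6.28 CPM against 1.16, 2.36, 5.86 and 1.66 CPM (2.70, SE 0.56, adjusted p = 0.00737 by edgeR). Mcpt4 was at 25.9, 64.9, 41.4 and 12.3 against 1.66, 5.03, 11.9 and 3.48 CPM (2.82) and Cma1 at 17.5, 35.7, 19.8 and 6.998 against 0.539, 3.15, 5.68 and 2.10 CPM (2.91). Replicate 2 held the most and replicate 4 the least in all 3, and the groups did not overlap. With Tpsb2 (2.67) and Hdc (2.27), which makes histamine, 5 of the 6 mast cell genes tested rose, and the receptor Kit was at 0.75. Of 16 genes of complement and the acute phase 3 rose, against 8.79% of all genes. They were Orm1 (2.76), Hp (2.29) and Cfd (1.83), all 3 of which adipocytes secrete. Hp, haptoglobin, was at 691, 251, 364 and 277 CPM against 54.2, 82.9, 125 and 82.3 CPM. Saa3 (-3.17) and Itih4 (-1.04) fell, and Saa3 counts were 1, 0, 6 and 4 against 19, 49, 62 and 19. In B cells, Jchain (1.24) and Blk (1.18) rose and the other 8 tested were not called, and none was called in 6 of 8 fits with a library left out or with total-count scaling. In the IGF group 3 of 13 rose, against 8.79% of all genes, namely Igfals (2.47), H19 (1.73) and Igfbp3 (1.21), and Igf1 was at 0.43. With a library left out, the call of Jchain was kept in 1 and those of Igfals and Igfbp3 in 3 of 8 fits, and no gene of the IGF group was called higher without Sham replicate 1 or 2.

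Both activators of the molecular clock named here fell. Arntl, the activator of the clock, was at 0.542, 1.38, 2.91 and 3.24 CPM in 5/6 Nx-LPi-Lp aortas and at 40.7, 25.8, 2.12 and 11.9 CPM in the Sham mice, where the spread was wide and replicate 3 lay inside the range of the 5/6 Nx-LPi-Lp mice. It fell by 3.23 on the log2 scale (SE 0.81, adjusted p = 0.0151 by edgeR), and the call was kept in 8 of 8 fits with a library left out. Npas2, another activator and a partner of Arntl, followed it closely, at 1.84, 2.20, 4.95 and 4.57 against 65.1, 43.4, 4.06 and 24.5 CPM, and fell by 3.25 (adjusted p = 0.00889 by edgeR). Ciart, a repressor that is highest when Arntl is low, rose by 2.03 (adjusted p = 0.0292 by edgeR), at 25.9, 20.3, 7.57 and 34.5 against 1.73, 2.36, 9.83 and 9.17 CPM, and the call was kept in 4 of 8 such fits. Bhlhe40 (1.42) rose as well, and 3 of the 19 tested were called higher and 2 lower, against 8.79% and 2.08% of all genes. The count of 3 was 1 without Sham replicate 2 and 8 without Sham replicate 3. Dbp, at 299.9, 193, 95.2 and 551 against 27.0, 54.1, 179 and 309.6 CPM, Per2 (0.60) and Nr1d1 (-0.16) overlapped and were not called. In Sham replicate 3 Per2 was at 245 CPM, against 123 to 185 CPM in 5/6 Nx-LPi-Lp aortas and at most 110 CPM in the other 3 Sham mice. The hour at which each mouse was killed is not given in the sources used here, and its part in these values was not tested.

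Promoters of Ciart and Arntl are shown because these genes moved in opposite directions and carry the letters of opposite clock elements. The windows, from RefSeq on GRCm38.p6, run from 250 bases before to 50 bases after the start site. Ciart lies at chr3:95882179-95882478 on the minus strand, and capitals mark 3 copies of the E-box CACGTG, the element that Arntl and its partners bind, with first bases at -116, -58 and -44 from the start site. Arntl lies at chr7:113207261-113207560 on the plus strand, and capitals mark 2 matches to GTAGGTNA, the core of the element bound by REV-ERB receptors, with first bases at -7 and 29. Arntl has 2 windows, and the one shown was picked because it holds more matches. The other holds 1.
Ciart promoter: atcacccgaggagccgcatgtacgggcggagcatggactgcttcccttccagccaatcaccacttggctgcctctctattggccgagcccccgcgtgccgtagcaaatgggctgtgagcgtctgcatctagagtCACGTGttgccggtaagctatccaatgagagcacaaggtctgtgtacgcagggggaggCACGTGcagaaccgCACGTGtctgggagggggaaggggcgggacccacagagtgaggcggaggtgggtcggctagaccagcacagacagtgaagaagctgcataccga
Arntl promoter: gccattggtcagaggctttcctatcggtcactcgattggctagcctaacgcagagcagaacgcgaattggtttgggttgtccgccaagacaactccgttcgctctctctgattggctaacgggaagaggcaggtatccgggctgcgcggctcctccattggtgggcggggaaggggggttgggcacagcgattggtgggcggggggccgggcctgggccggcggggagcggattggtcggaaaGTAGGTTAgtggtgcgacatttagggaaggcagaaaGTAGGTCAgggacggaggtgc

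On both strands, CACGTG, which reads the same on each, was found in 7.15% and GTAGGTNA in 2.14% of 32851 such windows, and the motifs share no letters where they were found here. Of the 19 clock genes 16 had a window (21 windows in all), 5 genes held CACGTG and 2 held GTAGGTNA, Arntl and Nfil3. The value of Nfil3 was -1.46 and did not pass the test. A match is a description of letters only.

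Nerve transcripts differed within the group. Dbh, which makes noradrenaline, was at 0, 0.565, 10.1 and 25.8 CPM in 5/6 Nx-LPi-Lp aortas and at 0.0385, 0.175, 0.226 and 0 CPM in the Sham mice, and Th, the first enzyme of that pathway, was at 0.271, 0, 6.77 and 13.8 against 0.385, 0, 0.0451 and 0 CPM. Replicates 3 and 4 lay far above the other 6 libraries, none of which reached 1 CPM in either gene. Neither gene passed the filter on low counts. Of 11 sympathetic neuron genes tested 5 rose, with Slc6a2, the noradrenaline transporter, at 3.76, Tubb3 at 3.55 and Ddc at 3.49. Without replicate 3 or without replicate 4, 1 of the 11 was called, and the call of Slc6a2 was also lost without any 1 of the Sham mice. Of 10 Schwann cell and myelin genes 5 rose, among them Mbp (1.52) and Sox10 (1.26), and Pmp22 (-0.46) was not called. Without Sham replicate 2 the count was 2.

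Heart muscle genes gave the largest rises, and hemoglobin genes were among the largest falls. Myl2, the ventricular myosin light chain, was at 1.57, 1530.2, 0.947 and 3.14 CPM against 0.424, 0.481, 0.632 and 0.0395 CPM (10.05), and Myl3 at 6.01, 1216, 2.26 and 2.81 against 0.385, 0.874, 1.08 and 0.119 CPM (9.10). Casq2 (5.69), Adprhl1 (5.97), Chrm2 (4.62), Esrrb (4.29) and Wnt9b (4.15) were also highest in replicate 2. Without that library the values were 2.36 for Myl2, 2.68 for Myl3, 3.66 for Adprhl1 and 2.15 for Chrm2, all 4 still called. Esrrb (2.71) and Wnt9b (2.95) were still called too, whereas Casq2 (1.20) was not. The counts of Wnt9b were 18, 234, 8 and 117 against 6, 9, 8 and 8 in the Sham mice. Of 8 heart muscle markers tested 4 rose, and the count was 0 without any 1 of the Sham mice, 2 without 5/6 Nx-LPi-Lp replicate 2 and 6 without replicate 3 or 4. The calls of Myl2 and Casq2 were lost when any 1 Sham mouse was left out, and those of Myl3 and Chrm2 without Sham replicate 1, 2 or 4. Tissue of the lung, kidney, adrenal, pancreas and skeletal muscle gave at most 1 called gene per list, Ager (1.23), Cela1 (1.496) and Myh7 (5.07), and 0 of 6 squamous keratins passed the count filter. Few members could be tested, 3 of 7 for lung, 4 of 10 for kidney, 2 of 8 for adrenal and 1 of 7 for pancreas. The summed level was 12.6 to 23.8 against 4.90 to 7.04 CPM for pancreas and 4.52 to 7.78 against 2.89 to 3.83 CPM for lung, without overlap. The kidney and adrenal sums overlapped. Myh7 gave 1.5 on the log2 scale without 5/6 Nx-LPi-Lp replicate 2, and its call was lost there and without any 1 of the Sham mice. The summed skeletal muscle level was 11.7, 447, 9.10 and 252 CPM against 10.7 to 85.1 CPM in the Sham mice. Hbb-bs was at 40.0, 27.99, 71.1 and 66.4 CPM against 1535, 475, 157 and 198 CPM and fell by 3.43 (adjusted p = 0.00722 by edgeR), and Hba-a1 was at 61.6, 42.2, 103 and 105 against 1992, 509.8, 176 and 218 CPM and fell by 3.12. All 5 erythroid genes fell, among them Alas2 (-2.98), the heme synthesis enzyme of red cells, and all 4 mice of the 5/6 Nx-LPi-Lp group lay below every Sham mouse in each. Without Sham replicate 1 all 5 were still called, and the call of Alas2 was lost without 5/6 Nx-LPi-Lp replicate 1. The globins occur as near-identical copies, so that reads may be split between them.

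Several genes outside the groups above also had small adjusted p-values. Tuba8, a tubulin, was at 35.3, 34.2, 25.9 and 15.2 CPM in 5/6 Nx-LPi-Lp aortas and at 2.74, 3.41, 3.61 and 3.56 CPM in the Sham mice and rose by 3.15 (adjusted p = 0.00167 by edgeR). Tmem120a was at 107, 87.4, 92.3 and 80.7 against 33.6, 40.9, 47.5 and 41.9 CPM (1.26). On the lower side, Serpinb9, the inhibitor of granzyme B, was at 17.8, 21.2, 21.5 and 22.6 against 43.4, 50.5, 44.6 and 41.0 CPM and fell by 1.02 (SE 0.11), close to the limit on fold change, under which it lay without Sham replicate 2 or 5/6 Nx-LPi-Lp replicate 1. Tceal6 was at 3.25, 5.21, 7.21 and 7.57 against 26.7, 22.7, 24.5 and 30.2 CPM and fell by 2.07, the largest fall among them. Aass, the first enzyme of lysine breakdown, was at 2.98, 3.89, 3.28 and 4.47 against 11.1, 11.2, 11.7 and 10.1 CPM (-1.495), and the Wnt receptor Fzd8 at 19.01, 19.96, 27.9 and 26.0 against 58.7, 54.6, 56.0 and 51.1 CPM (-1.16). The ranges of the groups did not overlap in these 6 genes. Rcn2 (-1.26), Clec11a (-1.17), Gulp1 (-1.08), Vstm2b (-1.35) and Bex4 (-1.79) also fell by the same rule, and Pcsk1n (4.45), a peptide of neuroendocrine cells, rose, at 0.704, 0.690, 9.03 and 16.5 CPM against 0.158 to 0.462 CPM.

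Against the 5/6 Nx-HPi-Lp group, which had the same surgery and the high-phosphate diet, 647 of 16253 genes were higher (3.98%) and 1284 lower (7.90%). The higher count was 339 without 5/6 Nx-HPi-Lp replicate 4, 392 without 5/6 Nx-LPi-Lp replicate 3 and 363 with a replicate block. This comparison shares the 5/6 Nx-LPi-Lp libraries with the one against Sham, so their values are only set side by side. Contractile genes, lower than in Sham, were higher than in 5/6 Nx-HPi-Lp, with 17 of 20 called and a median of 1.70. Acta2 stood at 5369 ± 2391 CPM (SD, n = 4) in the 5/6 Nx-LPi-Lp mice, 12474 ± 1492 in Sham and 1719.9 ± 781 in 5/6 Nx-HPi-Lp and its log2 fold change against the latter was 1.64 (SE 0.41, adjusted p = 0.0227 by edgeR). Of the matrix genes, 13 of 29 were called lower than in 5/6 Nx-HPi-Lp, against 4 of 29 for Sham, with Col1a1 at -3.20. Macrophage markers (16 of 18), cytokines (12 of 20) and complement and acute phase genes (15 of 18) were called lower than in 5/6 Nx-HPi-Lp, with Lcn2 at -6.05 and Hp at -3.09. Spp1 stood at 1.27 ± 0.716 CPM in 5/6 Nx-LPi-Lp aortas, 1.36 ± 0.305 in Sham and 734 ± 435 in 5/6 Nx-HPi-Lp (-9.19 against the latter), and Runx2 at -1.61. Fatty acid synthesis was higher against both groups, with 8 of 16 called and Fasn at 2.52, while 0 of 13 white adipocyte genes were called higher, 2 lower, and Adipoq was at -0.66. None of the 13 mitochondrial genes was called between the CKD groups, whose median was -0.25.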

How the data were processed

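Aortic RNA of 16 mice was sequenced from poly-A libraries, 1 per mouse, and 8 libraries were compared here. The authors deposited raw counts per gene, which they made with HISAT2 2.0.5 on mm10 and featureCounts 1.5.0-p3 (versions from the submitters' processing notes), for 54532 genes. The authors also deposited FPKM, used here for levels between genes and for limma. The strand setting of the counting is not given in the sources used here. No column was left unmatched to a sample, and no library was a copy of another (chi-square per gene of 20.03 or more between replicates).

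Differences in counts were tested in R 4.3.3 with the quasi-likelihood method of edgeR 4.0.16, on the 8 libraries alone, after filterByExpr and TMM scaling, and p-values were adjusted after Benjamini-Hochberg over every gene that passed the filter. Calls asked for an adjusted p no higher than 0.05 and a log2 fold change of 1 or more in size. CPM were scaled over the 16 libraries. Genes under the filter, with low counts in too many of the libraries, got no test, since counting error is large there. The scripts were tested on simulated counts with known changes. The share of mitochondrial counts was compared by an exact permutation test. Other settings tried were scaling by RLE or total counts, DESeq2 1.42.0, limma 3.58.1 on log2(FPKM + 1) or log2(FPKM + 0.1) (mean FPKM over 0.5), a count filter set to none or to 10 counts in each library, a fit of all 16 libraries, a block on replicate number, p alone as the rule, protein-coding genes alone, a table free of mitochondrial genes, and the removal of single libraries.

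Named were, among called protein-coding genes without overlap that reached a group mean of 50 counts, the 8 highest, the 8 lowest and the 8 with the smallest adjusted p in each direction, the key genes of each list, and the called member with the largest change in each list. Other members that illustrate a list were chosen after their values were seen. Some members of the lists count in the totals but are not reported here by name. The lists and the comparison were chosen with earlier results of these data known, and support nothing by being lists. Samples were grouped by their labels. Motifs and promoters came from RefSeq (GRCm38.p6). Figures were drawn with matplotlib.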

Additional observations from a re-analysis of the deposited data

Results flagged for a closer look

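Of 476 groups of 4 mice examined for a single library far from the other 3 by the gap relative to the range of the group, 29 were flagged, and chance flags about 1 in 20. Each value below is the CPM of that library, with the range of the other 3 mice of its group in brackets.

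Most flags in the 5/6 Nx-LPi-Lp mice fell on replicate 2 and on genes of heart muscle. Its summed heart muscle level was 9749 (73.0 to 146), with Myl2 at 1530 (0.947 to 3.14), Myl3 at 1216 (2.26 to 6.01), Pln at 309.7 (4.44 to 6.76), Casq2 at 152 (1.31 to 2.60), Adprhl1 at 86.1 (1.09 to 9.15) and Myh7 at 64.6 (0.146 to 3.57). In the same library Fabp3, used by heart and brown fat, was at 538 (71.0 to 131), the nuclear receptor Esrrb at 10.5 (0.655 to 1.52), the muscarinic receptor Chrm2 at 12.99 (0.583 to 0.857) and the angiotensin receptor Agtr1a at 7.41 (3.20 to 3.36). Replicate 1 was low in Ace at 257 (330.2 to 344), in the cell cycle inhibitor Cdkn1a at 23.5 (41.9 to 42.7) and in Klf4 at 34.2 (51.7 to 52.9). Replicate 3 was low in the interferon factor Irf7 at 12.1 (16.3 to 17.1).

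In the Sham mice, replicate 2 was high in the heat shock genes Hspa1a at 198 (35.5 to 46.1) and Hspa1b at 211 (35.5 to 51.8), and in the contractile genes Cnn1 at 1987 (1717 to 1751) and Synpo2 at 626 (476 to 495). Replicate 3 was high in the glucocorticoid target Fkbp5 at 119 (23.7 to 37.7), in the summed interferon genes at 228 (188 to 194), in Igfals at 2.44 (0.270 to 0.632), in Chrm2 at 0.451 (0.0437 to 0.0791) and in Il6 at 0.0451 (0 in the other 3 mice), and low in the summed immediate early genes at 953 (1276 to 1336). Replicate 4 was low in C3 at 171 (242 to 247), Klf4 at 37.5 (53.7 to 57.0) and Il1b at 0.119 (0.361 to 0.393). Replicate 1 held Th at 0.385 (0 to 0.0451). Values under 1 CPM rest on few reads.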

How the results depend on the processing

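Against Sham, no named gene turned its direction where it was called in the main fit or in another setting. The direction of other called genes was not checked. The count of lower genes was 842 with total-count scaling. limma on log2(FPKM + 1) gave 682 higher and 187 lower genes, and the test without a fold-change threshold 2781 and 2334. Removal of single libraries left 1130 to 1635 genes higher and 203 to 598 lower, the ends of the lower count being those without 5/6 Nx-LPi-Lp replicates 1 and 4. Leaving out 5/6 Nx-LPi-Lp replicate 2 together with Sham replicate 1, chosen after the data were seen, gave 1075 higher and 212 lower genes. Against the 5/6 Nx-HPi-Lp group, limma on log2(FPKM + 1) gave 398 higher and 654 lower genes, the absence of a fold-change threshold 1456 higher, and the removal of single libraries 339 to 655 higher and 902 to 1432 lower. The cause of these shifts was not tested, other than what the settings themselves change.

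The deviations of same-numbered mice from their group means had correlations of -0.22, -0.06, -0.10 and -0.020. Mice of unlike number gave -0.149 to 0.25, so these values cannot decide whether the numbers pair the mice. The labels do not state it. A replicate block gave 1112 higher and 336 lower genes against Sham, and 363 higher against 5/6 Nx-HPi-Lp. The rise of the mitochondrial share stayed between 11.01 and 13.3 percentage points with a library left out, and was 11.9 for the 13 protein genes alone. Of 98 genes of the naming rule called against Sham, 70 kept their call in all 8 fits with a library left out. Over all settings, 224 fits of named genes lost a call, and 22 gave a call to a named gene that the main fit did not call. Of 939 list medians, 58 moved by more than 1 SD. Genes under the count filter could not be tested at this depth.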
